A study of Rattus norvegicus with 4 samples.

Results

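The enzymes that make, use and dispose of homocysteine, together with the enzyme pair that starts glutathione synthesis, were followed in rat hypothalamus after replacement of thyroid hormone. The set held 9 genes chosen by name, Cbs, Cth, Mtr, Ahcy, Mat2a, Shmt1, Shmt2, Gclc and Gclm. Their probes were found through the accession that the scanner files give for each spot. This matched 9 probes to 8 of the genes, of 41012 probes in all, and Shmt1 was not analysed here. A filter on dim probes left 7 probes of 6 of these genes, among 23191 probes that named 9304 genes. The set was built around Cbs because its ratio between treatments was the 1 lower gene past the threshold in an earlier look at the same arrays. The ratios of these enzymes are therefore a description. Where the fit over all genes is quoted for them, its calls chose the set and support nothing.

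Each of 4 two-colour Agilent arrays set the RNA of a rat given T3 (triiodothyronine, the form of thyroid hormone that binds its receptors) against that of a rat given saline, in different dyes. All 8 male Sprague Dawley rats had been made hypothyroid with 0.025% methimazole, which blocks thyroid hormone synthesis, in the drinking water over 22 days. The T3 rats received 25 µg per 100 g on day 21, the other 4 received saline, and tissue was taken 24 hours later, at 10 weeks of age. T3 was labelled with Cy5 on arrays 1 and 3 and with Cy3 on arrays 2 and 4. Both groups carried the methimazole treatment, and no group without it was analysed here. The tissue was a block from bregma -2.12 to -4.52 mm with all its cell types, so that fewer cells of a type and less RNA per cell cannot be told apart.

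Homocysteine stands at a branch point of sulphur metabolism. Methionine adenosyltransferase, whose catalytic subunit outside the liver is Mat2a, makes the methyl donor S-adenosylmethionine, and Ahcy releases homocysteine from what is left once the methyl group has been used. Homocysteine is then either returned to methionine by Mtr, which needs vitamin B12 and a methyl group carried on folate, or committed to transsulfuration by Cbs. Cbs joins it to serine, giving cystathionine, and Cth cleaves cystathionine to cysteine, the amino acid that limits glutathione synthesis. Cbs and Cth can also produce hydrogen sulfide. In mouse brain CBS protein is known mainly from astrocytes and radial glia, and in people hypothyroidism is known to go with raised homocysteine in plasma.

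The 250 bases before the start sites of Cbs and Ahcy are shown because these enzymes consume and produce homocysteine and their ratios differed in size. Both come from RefSeq on build GRCr8, minus strand, at chr20:9733926-9734175 for Cbs and at chr3:164044563-164044812 for Ahcy. Capitals mark every match, on either strand, to the motifs searched. These were the thyroid hormone receptor half-site AGGTCA, its direct repeat with a spacing of 4 bases, the antioxidant response element core TGACNNNGC, the amino acid response element core TGATGNAA, the GC box GGGCGG, the CCAAT box and the E-box CACGTG.
Cbs: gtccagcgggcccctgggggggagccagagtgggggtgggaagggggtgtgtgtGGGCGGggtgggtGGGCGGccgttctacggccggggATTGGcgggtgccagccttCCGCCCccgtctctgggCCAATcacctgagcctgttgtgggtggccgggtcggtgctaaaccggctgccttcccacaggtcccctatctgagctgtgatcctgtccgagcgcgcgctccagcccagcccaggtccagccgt
Ahcy: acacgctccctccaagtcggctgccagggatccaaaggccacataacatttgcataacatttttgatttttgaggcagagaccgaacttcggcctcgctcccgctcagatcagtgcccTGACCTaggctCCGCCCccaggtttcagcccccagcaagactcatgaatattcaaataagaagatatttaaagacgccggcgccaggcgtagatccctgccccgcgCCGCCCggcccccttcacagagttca
The Cbs window held 3 GC boxes and 2 CCAAT boxes and was 71.2% G or C, against a median of 51.2% over 33469 such windows. The Ahcy window held 2 GC boxes and the half-site of the thyroid hormone receptor, 132 bases before the start. A half-site was present in 14.1% of all windows and in 1 of the 9 windows of the set, and a GC box in 30.5% of all windows and in 8 of the 9. The repeat of the half-site was in 0.00299% of all windows and in 0 of the 9. The antioxidant core was in 10.1% of all windows and, in the set, in that of Gclm, and the amino acid response core in 3.4% of all windows and in 0 of the 9. The CCAAT box was in 34% of all windows and in 5 of the 9, and the E-box in 5.59% and in 2. No matches overlapped in the 9 windows.

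Cbs was the enzyme of the set whose levels in T3 rats and saline rats did not overlap, with the T3 rats lower. Its probe, A_42_P645923, was well above background in both dyes on all 4 arrays. Before any normalization, the spot in Cy5 had a median brightness of 2051 and 2310 in the T3 rats of arrays 1 and 3, against 2806 and 3068 in the saline rats of arrays 2 and 4. In Cy3 it had 745 and 649.5 in the T3 rats of arrays 2 and 4, against 1452 and 1187 in the saline rats of arrays 1 and 3. Within each dye, both T3 rats lay below both saline rats. Raw values also carry differences between whole arrays, and the share of all probes with this order was not counted. In Cy5 the order also held for Ahcy, at 7296 and 7853 against 9365 and 7986. Nothing is read from it, since the same arrays chose Cbs.

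After background correction and loess normalization, the log2 ratio of T3 over saline for Cbs was -0.58, -0.59, -0.56 and -0.77 on arrays 1 to 4. Arrays 1 to 3 lay close together and array 4 lay lower. With Agilent's processed signals array 1, at -0.78, lay near array 4, at -0.82. The mean of the loess ratios was -0.62 ± 0.10 (SD, n = 4 arrays), a 0.649-fold level. Over all 9304 named genes the median mean ratio was 0.0042, the SD over genes was 0.15, and 9 genes had a lower mean than Cbs.

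The level of each rat was also read on a common scale, as normalized log2 brightness after the mean brightness of the arrays was made equal in distribution. Cbs stood at 10.23, 10.12, 10.47 and 10.28 in the T3 rats, against 10.81, 10.70, 11.03 and 11.06 in the saline rats. The highest T3 rat was below the lowest saline rat. The spread within a treatment was alike, with an SD of 0.15 in T3 rats and 0.17 in saline rats. A lower T3 group without overlap was seen for 0.707% of 9049 genes with a value for all rats, a difference in either direction without overlap for 1.91%, and a ratio below 0 on all 4 arrays for 8.03% of them. Nothing is read from these shares for Cbs, since the same contrast chose it.

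**Figure D1:**
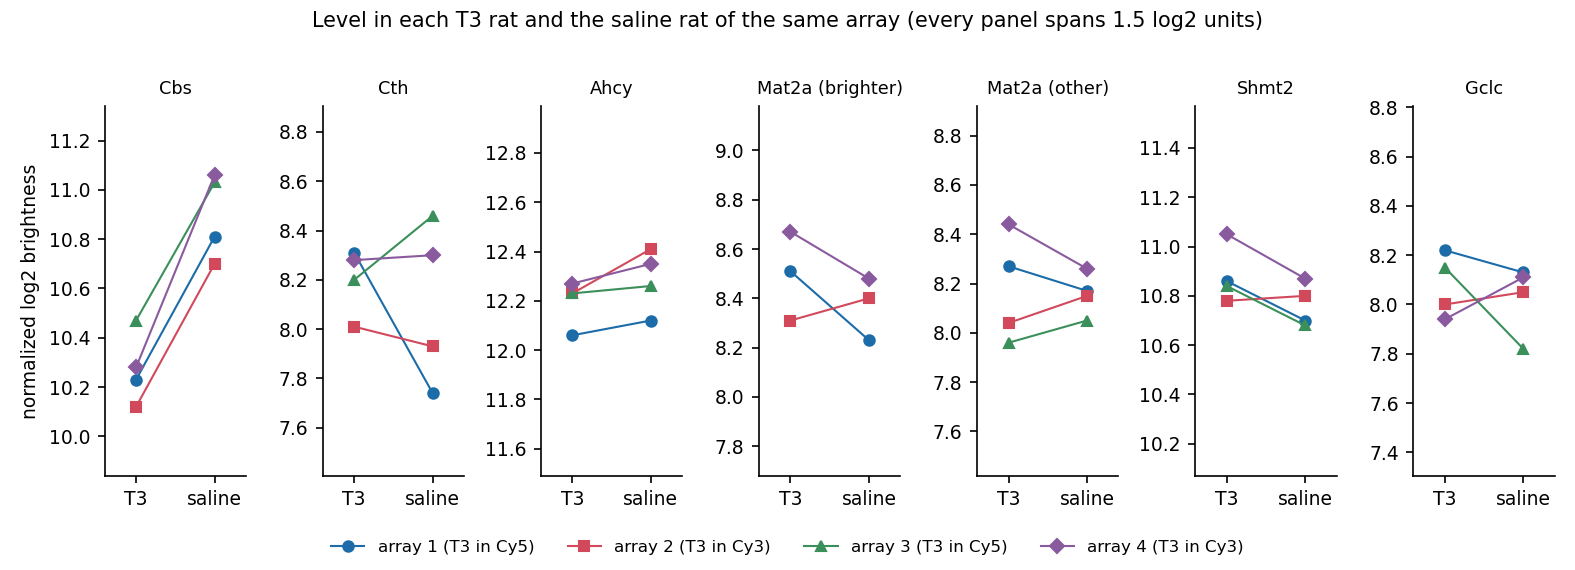
Normalized log2 brightness (vertical axis) of each kept probe of the set in the T3 rat (left) and the saline rat (right) of each array, joined by a line. The Cbs lines all rise towards saline with T3 at 10.12 to 10.47 and saline at 10.70 to 11.06, while the lines of the other probes cross or stay nearly level.

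Cth, the next enzyme of transsulfuration, had ratios on both sides of 0. They were 0.56, 0.08, -0.26 and -0.02 on arrays 1 to 4, with a mean of 0.09 ± 0.34 (SD, n = 4). Array 1 was high and array 3 low, and the levels overlapped, at 8.01 to 8.31 in T3 rats and 7.74 to 8.46 in saline rats.

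Of the methionine cycle, Ahcy had the brightest probe of the set, and its ratios differed little between arrays. They were -0.06, -0.18, -0.03 and -0.08, with a mean of -0.09 ± 0.06 (SD, n = 4). All were below 0, but the levels overlapped, at 12.06 to 12.27 in T3 rats and 12.12 to 12.41 in saline rats. Mat2a was read by 2 probes. The brighter had ratios of 0.28, -0.09 and 0.18 on arrays 1, 2 and 4 (mean 0.13 ± 0.19, SD, n = 3), its spot on array 3 being an outlier that was left out of the fit. The other had 0.10, -0.11, -0.08 and 0.18 (mean 0.02 ± 0.14, SD, n = 4). Both Mat2a probes were above 0 on arrays 1 and 4 and below 0 on array 2.

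The probe of Mtr, which remethylates homocysteine, was well above background on 2 of 4 arrays in T3 rats and on 2 of 4 in saline rats, and did not pass the filter. Its measured ratios of -0.27, 0.01, 0.13 and -0.16 rest on signals near background and give no direction. Shmt2, the mitochondrial enzyme that turns serine into glycine and loads a carbon onto folate, had ratios of 0.16, -0.02, 0.16 and 0.19. Their mean was 0.12 ± 0.09 (SD, n = 4), with array 2 apart from the others, and the levels overlapped at 10.78 to 11.05 in T3 rats and 10.68 to 10.87 in saline rats.

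Gclc, the catalytic subunit of glutamate-cysteine ligase, the enzyme that starts glutathione synthesis, had ratios of 0.09, -0.05, 0.33 and -0.17 (mean 0.05 ± 0.21, SD, n = 4). Its levels were 7.94 to 8.22 in T3 rats and 7.82 to 8.13 in saline rats, with overlap. Gclm, the modifier subunit, was well above background on 1 of 4 arrays in T3 rats and on 0 of 4 in saline rats, so no ratio is read from it. Its spots had a brightness of 69.5 to 144 in T3 rats and 80 to 145.5 in saline rats, over local backgrounds of 46 to 106 and 49 to 104.

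**Figure D2:**
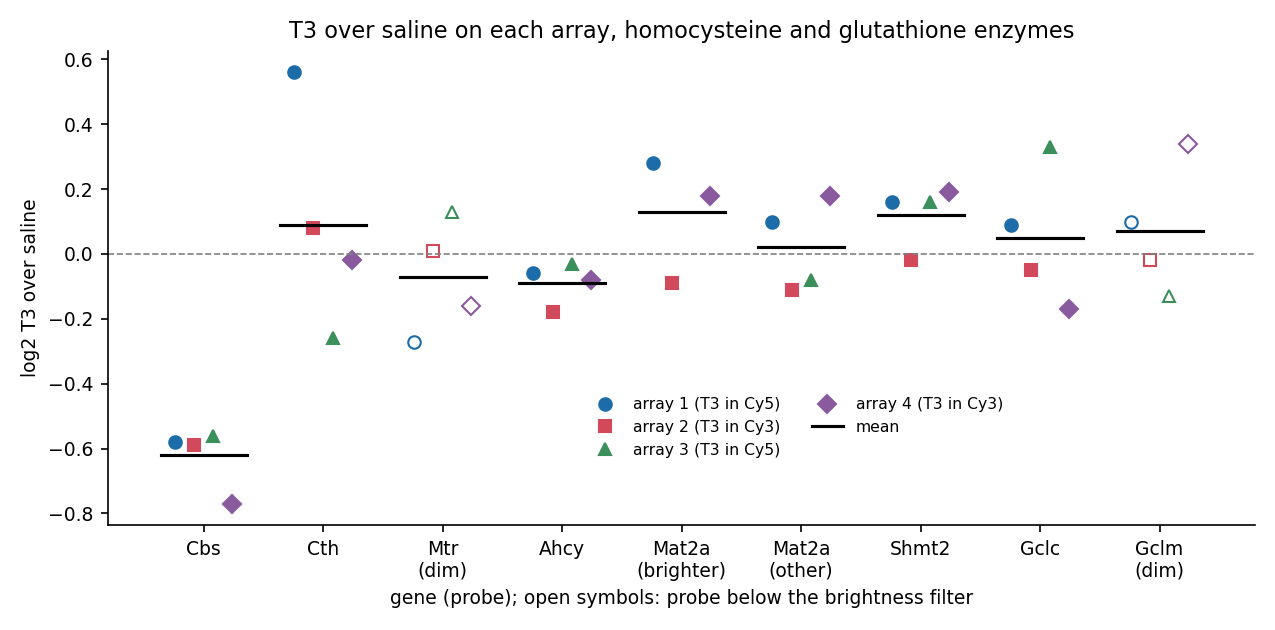
Log2 ratio of T3 over saline (vertical axis) for each of the 9 probes on each array, with the mean as a bar; open symbols mark the Mtr and Gclm probes, which were too dim to pass the filter. The 4 Cbs values lie between -0.77 and -0.56, and the values of the other kept probes between -0.26 and 0.56.

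Of the 6 genes past the filter, limma called Cbs alone (adjusted p under 0.05), while 0.161% of all 9304 genes were called in either direction and 0.0107% were called lower. Of all 23191 probes, 0.0992% were called, 0.0949% higher and 0.00431% lower, and of genes 0.15% were called higher. The call is the reason Cbs was chosen, so nothing is read from this count. Without replicate 1, 2, 3 or 4, limma no longer called Cbs, at means of -0.64, -0.64, -0.65 and -0.58. With median centring in place of loess the Cbs ratios were -0.21, -1.08, 0.05 and -1.42, so that array 3 was above 0. In the authors' deposited table they were -0.80, -0.91, -0.14 and -1.16, all below 0. The log base and centring of that table are not given in the sources used here, and its columns correlated with the ratios of their own arrays at r = 0.43, 0.43, 0.19 and 0.28 across kept probes, which are not independent replicates.

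**Figure D3:**
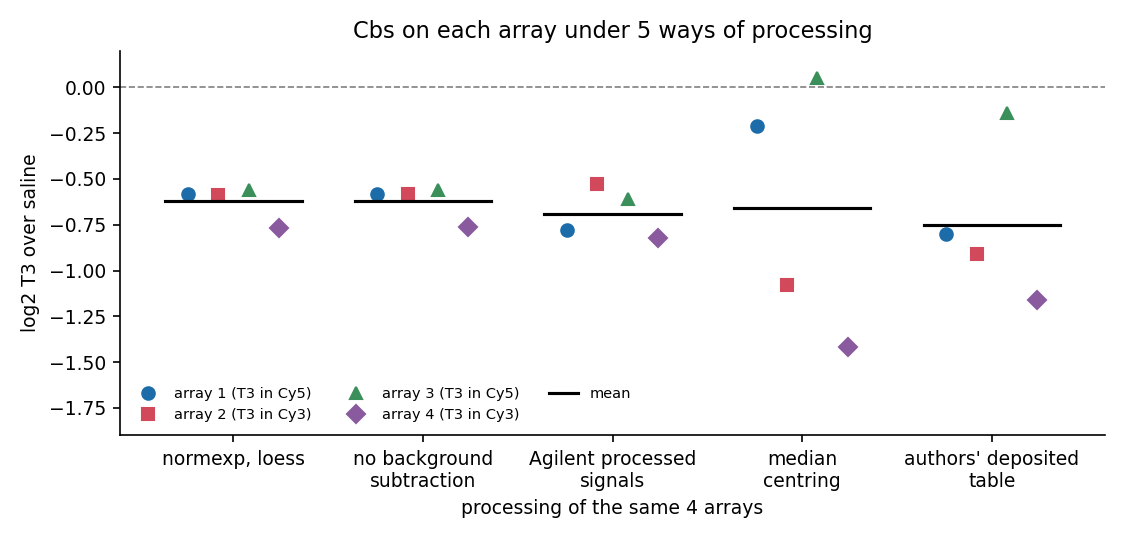
Log2 ratio of T3 over saline for Cbs (vertical axis) on each array under 5 ways of processing, with the mean as a bar. Among these ways is the authors' deposited table, with a mean of -0.75. It was read as log2 T3 over saline, although its log base is unknown. The mean stays between -0.75 and -0.62, while with median centring the arrays split by dye orientation, at -0.21 and 0.05 with T3 in Cy5 and -1.08 and -1.42 with T3 in Cy3.

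The dye itself was also tested. For Cbs this is no outside check, because a large dye difference would have widened the spread on which its call rests. The difference in ratio between arrays with T3 in Cy5 and arrays with T3 in Cy3 was tested over 23188 probes with a dye term, and limma called 0 of them (0%), with 3936 at an unadjusted p under 0.05. For Cbs this difference was 0.11 (means of -0.57 and -0.68, limma adjusted p = 0.681). It was larger for Gclc, at 0.32 (means of 0.21 with T3 in Cy5 and -0.11 with T3 in Cy3), without passing (limma adjusted p = 0.308). For the other kept probes it lay between -0.03 and 0.24. A miss of the threshold does not show that the dyes read alike.

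Genes of the neighbouring pathways were counted from 10 lists. Without the 9 enzymes the lists held 144 genes, 128 were matched to a probe and 118 passed the filter. Limma called 0 of the 118. At an unadjusted p under 0.05 there were 3 higher and 6 lower, 7.63% of them, against 9.26% of all genes. Their median ratio was 0.01.

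In the methionine cycle, 5 of 8 measured genes had a higher mean and 3 a lower one, with 0 called. Ahcyl1, a relative of Ahcy that binds the inositol trisphosphate receptor, had ratios of 0.44, 0.33, 0.27 and 0.63 (mean 0.42 ± 0.16, SD, n = 4 arrays; limma adjusted p = 0.161). It was above 0 on every array while Ahcy was below 0 on every array. Mat2b, the regulatory subunit of the adenosyltransferase, was at 0.10 ± 0.08 (limma adjusted p = 0.826).

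Of the 7 measured genes of transsulfuration and hydrogen sulfide handling, 4 had a lower mean, with Cbs the 1 called. Among the others, Tst, a mitochondrial sulfurtransferase named after its values were seen, was at -1.02, -0.17, -0.86 and 0.20 on arrays 1 to 4 (limma adjusted p = 0.603). Sqor, which oxidizes hydrogen sulfide and was named likewise, was at -2.06 on array 2 and at 0.06 to 0.19 on the others. Both vary between arrays by more than their mean.

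Serine, the partner of homocysteine in the Cbs reaction, is made by Phgdh, Psat1 and Psph. Phgdh, the first enzyme, had ratios of -0.48, -0.31, -0.68 and -0.08 (mean -0.39 ± 0.25, SD, n = 4; limma adjusted p = 0.323). Psat1 had -0.11, -0.10, -0.30 and -0.54 (mean -0.26 ± 0.21; limma adjusted p = 0.508). Both were below 0 on every array without passing. Over the list of serine synthesis and vitamin B6 and B12 handling, 7 of 12 measured genes had a lower mean and the median was -0.06, with Cd320, the receptor for transcobalamin-bound vitamin B12, at -0.14 ± 0.12 (limma adjusted p = 0.741).

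In the folate list 8 of 16 measured genes had a higher mean and 8 a lower one, with 0 called. The folate transporter Slc19a1 was at 0.18 ± 0.15 (limma adjusted p = 0.635) and Aldh1l1, a folate dehydrogenase also used as an astrocyte marker, at -0.20 ± 0.22 (limma adjusted p = 0.663). Of 5 measured genes of cysteine uptake and taurine synthesis 0 were called, among them Slc3a2 at -0.07 ± 0.06, Csad at -0.15 ± 0.40 and Got1 at 0.12 ± 0.22 (limma adjusted p between 0.875 and 0.886).

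Glutathione synthesis and breakdown showed a median ratio of 0.01 over 12 measured genes, with 7 higher, 5 lower and 0 called. Anpep, an aminopeptidase of the cell surface, was at 0.15 ± 0.04, Ggct at 0.16 ± 0.14 and Chac2 at 0.11 ± 0.08, the last 2 being enzymes of glutathione breakdown (limma adjusted p between 0.616 and 0.769). Of 34 genes that use glutathione or thioredoxin, 18 were higher, 16 lower and 0 called. Gstp1, a glutathione transferase, was at 0.27 ± 0.16, while Gsta4 was at -0.24 ± 0.18 and the microsomal Mgst1 at -0.22 ± 0.18 (limma adjusted p between 0.396 and 0.560). Probes of this family may bind near-identical members.

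Methyl group use and polyamine genes had 8 of 14 higher and 0 called. Gatm, which starts creatine synthesis, was at -0.33 ± 0.19 (limma adjusted p = 0.312), Amd1 at 0.15 ± 0.11 and Sat1 at -0.20 ± 0.19. Of 11 genes regulated by NRF2, the transcription factor of the antioxidant response, 9 were higher, 2 lower and 0 called, with a median of 0.05. Among them Txnrd1 was at 0.15 ± 0.11 and Srxn1 at 0.12 ± 0.16. Of 13 genes regulated by ATF4, the transcription factor of amino acid shortage, 5 were higher, 8 lower and 0 called, with a median of -0.02. They include Phgdh and Psat1, and Sesn2 was at -0.17 ± 0.17.

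**Figure D4:**
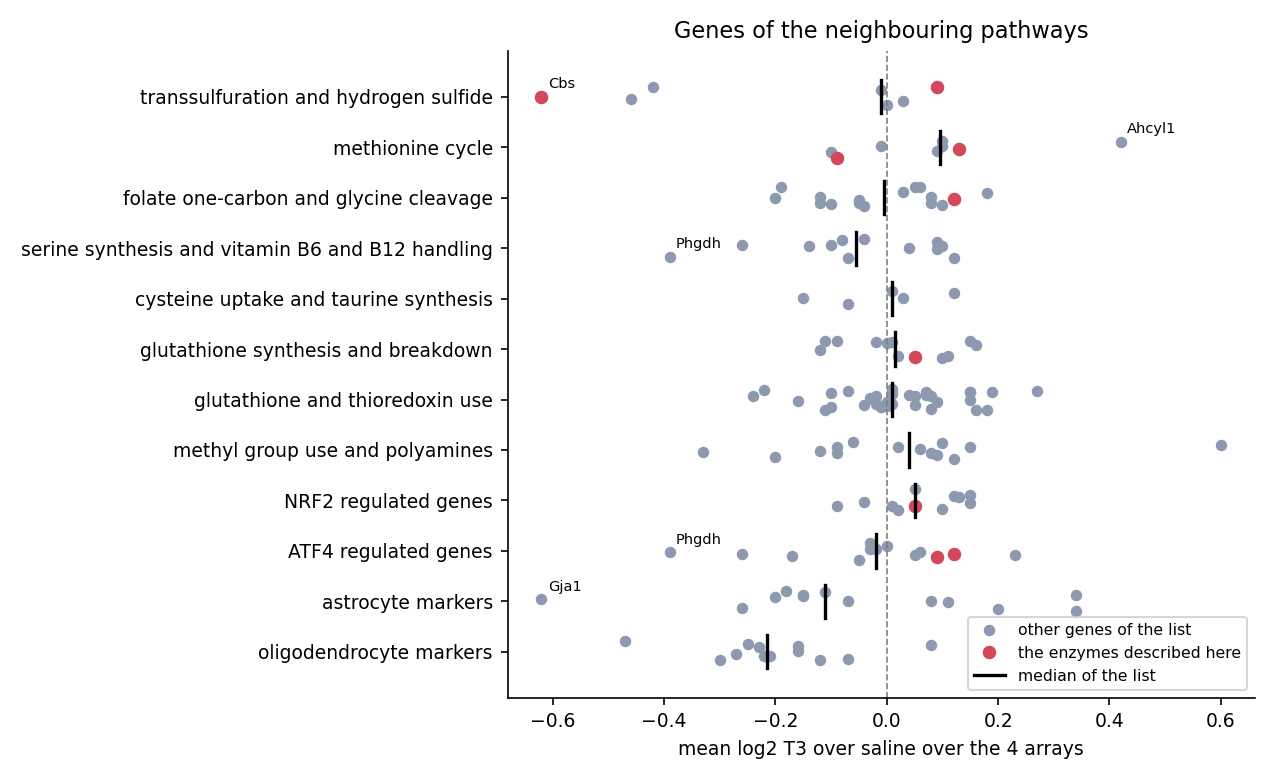
Mean log2 ratio of T3 over saline (horizontal axis) for every measured gene of the 10 pathway lists and of the astrocyte and oligodendrocyte markers, 1 point a gene, with the list median as a bar and the enzymes described here in red. Cbs lies at -0.62, while list medians lie between -0.22 and 0.09.

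Hr, a direct target of thyroid hormone used as a check of the labels, had ratios of 1.19, 1.00, 1.16 and 1.37 and was well above background on 4 of 4 arrays in T3 rats and 3 of 4 in saline rats. The hypothalamus markers Avp, Oxt, Hcrt, Pmch, Hdc and Pomc were well above background on all arrays in both treatments. Of 16 measured hypothalamus markers 13 had a lower mean and 3 a higher one, with 0 called by limma. At an unadjusted p under 0.05 there were 1 higher and 3 lower (25%, against 9.26% of all genes). The array medians of these markers were -0.05, -0.09, -0.45 and 0.05. Avp was at 1.17, -0.18, -2.63 and -0.72 and Oxt at 1.81, 0.13, -2.53 and -0.27 on arrays 1 to 4, so that arrays 1 and 3 stood apart in opposite directions. Cbs was at -0.58 and -0.56 on those arrays and at -0.59 and -0.77 on arrays 2 and 4. Whether the Cbs ratio depends on what these markers reflect was not tested. Pairs of arrays of the same dye orientation correlated at r = 0.18 and 0.38 across kept probes, and pairs of opposite orientation at -0.11 to 0.11.

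Because CBS is known from astrocytes, markers of cell types are given beside its ratio. Of 13 measured astrocyte markers 8 had a lower mean and 5 a higher one, with a median of -0.11 and array medians of 0.06, -0.34, -0.16 and 0.11. Limma called 0 of them, and 2 higher and 2 lower had an unadjusted p under 0.05 (30.8%, against 9.26% of all genes). Their summed brightness was 224000 to 259000 in T3 rats and 248000 to 271000 in saline rats. Gja1, the astrocyte connexin, was at -0.73, -0.61, -0.85 and -0.30 (mean -0.62 ± 0.23, SD, n = 4; limma adjusted p = 0.0934). Aqp4 was at -0.15 ± 0.22, Slc1a3 at -0.15 ± 0.17, Aldoc at -0.26 ± 0.03, Gfap at -0.18 ± 0.98 and Fgfr3 at 0.34 ± 0.20. Astrocyte markers thus went both ways, and their part in the Cbs ratio was not tested.

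Oligodendrocyte markers had a lower mean in 11 of 12 genes, with 0 called by limma. Of them 5 were lower at an unadjusted p under 0.05 (41.7%, against 9.26% of all genes). These markers had a median of -0.22 and array medians of -0.20, -0.38, -0.25 and 0.02. Their summed brightness was 160000 to 273000 in T3 rats and 246000 to 296000 in saline rats. The oligodendrocyte and astrocyte medians were highest on array 4, where Cbs was at -0.77. With Agilent's processed signals Cbs was at -0.82 on array 4 and at -0.78 on array 1. A link between these values was not tested. Of other cells, 8 of 11 neuronal, 4 of 9 microglia, 5 of 7 endothelial and 6 of 10 ependymal and tanycyte markers had a higher mean, with 0 called by limma. At an unadjusted p under 0.05 there were 3 higher and 4 lower ependymal and tanycyte markers (70%), 2 higher and 1 lower endothelial markers (42.9%), and 0 neuronal and 0 microglia markers. Over all genes the share was 9.26%. The part of these cells in the Cbs ratio was not tested. Red blood cell and choroid plexus markers differed between single rats, with Hbb at -3.25 on array 2 and Ttr at 3.53 on array 3. Cbs was at -0.59 and -0.56 on those arrays and at -0.58 and -0.77 on the others. A part of blood or choroid plexus in the Cbs ratio was likewise not tested.

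The genes whose ratios over the 4 arrays lay closest to those of Cbs were found among 9048 genes by the root mean square difference. They were Arhgef19 at a difference of 0.142, Qdpr, which regenerates tetrahydrobiopterin, at 0.145, the metallothionein Mt2A at 0.155, C19h1orf198 at 0.198 and Nbl1, a secreted antagonist of bone morphogenetic proteins, at 0.199. Their means lay between -0.59 and -0.46. Arhgef19, at -0.36, -0.50, -0.40 and -0.81, was lowest on array 4, as Cbs was. Qdpr and Nbl1 were lowest on array 3, and Mt2A and C19h1orf198 on array 2. All were picked for likeness to Cbs, so nothing is read from this.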

How the data were processed

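The software that read the scans was Agilent Feature Extraction, version 10.7.3.1. In its deposited output each spot had, per the file headers, median and processed intensity values and a ratio of the 2 dyes on the log10 scale. A series table deposited by the authors (41105 rows) was read as log2 ratios, for which the submitters' processing notes name limma 3.18.9. Its log base and centring stay unknown, and its column medians were 0.0026, -0.0024, 0.0021 and 0.0030. It was read as T3 over saline because each unturned column correlated positively with the turned ratios of its array.

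Background was corrected with normexp (offset 50) and each array normalized by loess in limma 3.58.1 under R 4.3.3, in which controls had weight 0. They and outlier spots were then left out, and ratios with T3 in Cy3 were turned. Probes were kept when well above background on at least 3 of 4 arrays in the T3 or the saline channel. Levels of single rats came from the same ratios after Aquantile scaling. The T3 and dye tests were limma (lmFit, eBayes, 2-sided) with Benjamini-Hochberg adjustment over all kept probes, threshold 0.05. The number of arrays limits the precision. The labels give 8 rats, so each array was taken as a separate pair.

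Accessions were matched to RefSeq GRCr8 names, which gave 1 symbol to 16964 probes and none to 24048. A gene was read by its brightest kept probe. Members and lists were chosen with earlier results of these data known. Genes were named by rule: all member probes; of each list up to 4 called genes with 1 sign on all arrays, otherwise up to 3 with the smallest p; the 5 genes most like Cbs; and named markers. A gene that the rule names is not reported here. The fits were tested on simulated data. Alternatives are given in the closing section.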

Additional observations from a re-analysis of the deposited data

Results flagged for a closer look

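For 86 genes and list medians, the gap between the array standing apart and its nearest neighbour was divided by the range over the 4 arrays. The quotient passed Dixon's critical value for 4 samples in 6, where chance gives about 4.3. For Cbs the quotient was 0.879 in the loess ratios, from -0.77 on array 4, with -0.59 to -0.56 elsewhere. For Shmt2 it was 0.869, from -0.02 on array 2, with 0.16 to 0.19 elsewhere. Gstp1 (0.862) had 0.51 on array 4 and 0.17 to 0.22 elsewhere, and Chac2 (0.842) had 0 on array 1 and 0.14 to 0.16 elsewhere. Among markers, Cnp of oligodendrocytes (0.848) had 0.12 on array 4 and -0.46 to -0.37 elsewhere, and Sostdc1 of choroid plexus (0.905) had 2.70 on array 3 and -0.37 to -0.08 elsewhere.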

How the results depend on the processing

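The mean Cbs ratio was below 0 in all 12 alternatives, and the call held in 4 of them: no background subtraction, no filter on dim probes, probes well above background on all arrays in both channels, and eBayes with trend and robust. It was not called with Agilent's processed signals (-0.69, limma adjusted p = 0.150), median centring (-0.66, adjusted p = 1.00), a dye term (-0.62, adjusted p = 0.0598) or the authors' deposited table (-0.75, adjusted p = 0.499), nor without any 1 replicate (-0.65 to -0.58, adjusted p between 0.0525 and 0.246). In each of these 8 alternatives the pathway lists had 0 calls in place of 1, with 0 to 17 genes at an unadjusted p under 0.05. Over all probes, 23 were called. The count was 0 with Agilent's processed signals and with median centring (1949 and 131 at an unadjusted p under 0.05), 67 with no filter, 15 with a dye term, 38 with eBayes trend and robust, 10 in the authors' table, and 0 to 68 when 1 replicate was left out. Median centring, which makes no correction that depends on brightness, raised the dye calls from 0 to 15471. The causes of these changes were not tested. Cth, Ahcy, Mat2a, Shmt2 and Gclc were not called in any alternative and moved by less than their spread between arrays, although the mean of Cth without replicate 1 (-0.06), of Gclc without replicate 3 (-0.04) and of Mat2a with median centring (-0.01) was below 0. The pairing was already in the ratios, since each array sets 1 T3 rat against 1 saline rat, so no further paired analysis was run. Dim probes (Mtr, Gclm) limit what can be said of these genes.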
